A study of Mus musculus with 6 samples.

Results

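The genes described here encode 9 surface markers that are used to sort, stain or deplete germline stem cells: Itga6, Itgb1, Thy1, Cd9, Cd24a, Kit, Epcam, Cdh1 and Alpl. They were taken by gene symbol from an array table of 26423 probes and 19084 named genes, in which 11 probes carried one of these symbols. All 9 genes passed the filter on dim signal and were among the 15459 genes tested. RNA from mouse gonadal cells of the strain ICR was hybridised to 6 single-colour (Cy5) arrays, 2 in each of 3 groups. GSC colony arrays held testicular cells of newborn to P2 mice, 80 animals in all, seeded without sorting and grown into colonies for 7 days under 5% O2, which were then picked. CD49f+ sorted arrays held testicular cells of the same age from 100 mice, with no culture step described, bound by an antibody to CD49f and retained on a magnetic column, with the oxygen condition labelled only as physiological hypoxia. PGC colony arrays held colonies grown in the same way from the gonads of 67 embryos at E11.5. Both kinds of colony grew on laminin at 200 ng/cm2 with epidermal growth factor at 10 ng/ml. In the labels GSC stands for glandular stem cells, PGC means primordial germ cells, and the protocol calls the testicular colonies alkaline phosphatase positive. Animals were pooled, and nothing in the labels tells if a group's arrays are separate preparations, so the p-values below reflect array-to-array spread alone, possibly of technical origin.

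Germline stem cells are rare among the somatic cells of the testis and are enriched by the proteins on their surface. CD49f is the integrin subunit alpha 6, which pairs with beta 1 (Itgb1) or beta 4 to bind laminin in the basement membrane on which spermatogonial stem cells sit. CD9, THY1, CD24, EpCAM and E-cadherin (Cdh1) have served as positive markers, the receptor KIT marks primordial germ cells and differentiating spermatogonia, and tissue-nonspecific alkaline phosphatase (Alpl) is the classical stain for primordial germ cells. None of these proteins is restricted to germ cells. THY1 is also found on fibroblasts, EpCAM and E-cadherin on epithelia, KIT on mast cells and Leydig cells, and CD9 and the integrins on many cell types.

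The 9 markers did not move as one set. Against CD49f+ sorted cells, Thy1, Itgb1 and Cd9 were higher in both kinds of colony, whereas Alpl, Epcam, Cdh1 and Kit were lower in both. Cd24a lay lower in GSC colonies and higher in PGC colonies than in sorted cells, though without normalization between arrays its difference in GSC colonies was -0.13 and did not pass. Itga6, the marker used for the sort, was lower in GSC colonies than in sorted cells by a small margin, and the sign of that difference turned without normalization between arrays. Levels are normalized log2 intensities, differences are in log2 units with the standard error (SE) of the limma fit, and genes count as called below a Benjamini-Hochberg adjusted p of 0.05. In GSC colonies against sorted cells 3 members rose and 6 fell, 9 of 9 called, where 47.1% of all genes tested were called (22.5% higher and 24.5% lower). In PGC colonies against sorted cells 4 rose and 4 fell, where 46% of all genes were called (22.8% higher and 23.2% lower). Between the colonies 3 were higher and 1 was lower in PGC colonies, where 15.1% of genes were called (7.08% higher and 7.98% lower). The median absolute difference of the members was 1.17, 1.13 and 0.29 in the 3 comparisons, beside 0.42, 0.39 and 0.22 over all genes tested. The 2 groups did not overlap for 9, 9 and 7 members, where they did not overlap for 75.6%, 71.1% and 56.7% of all genes tested, so the lack of overlap alone says little. The comparisons share arrays and are not independent. In RNA from mixed cells, fewer cells of a type and less RNA per cell cannot be told apart.

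**Figure D1:**
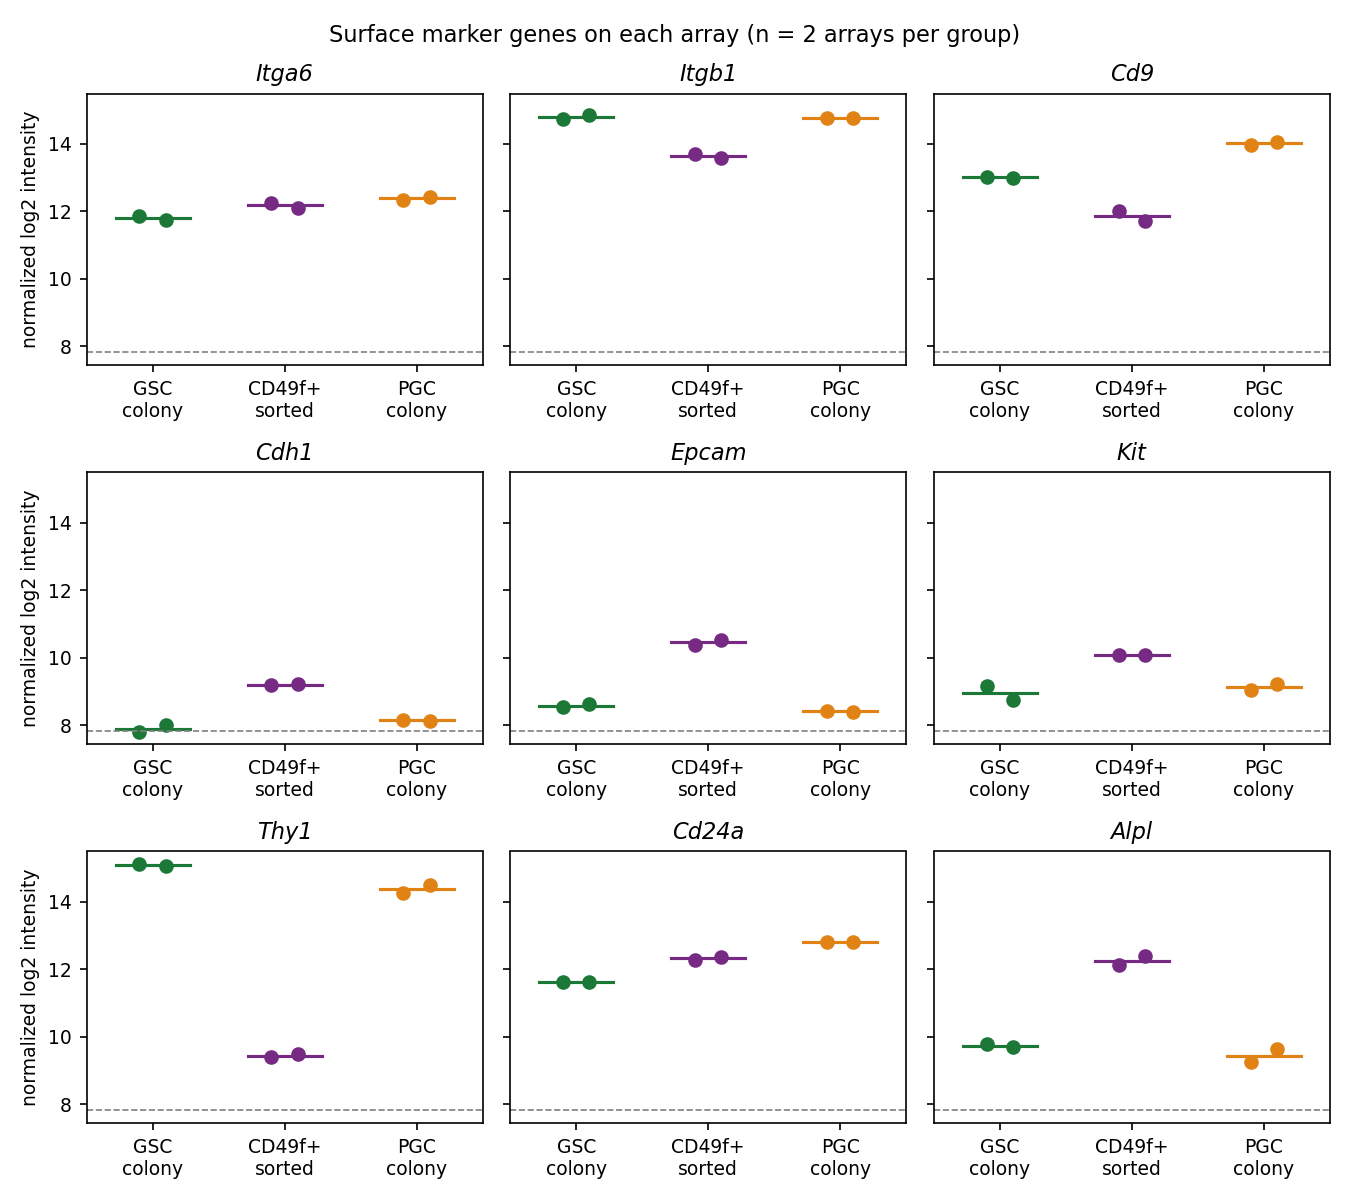
Normalized log2 intensity (vertical axis) of the 9 surface marker genes on each of the 6 arrays, 2 points per group with their mean as a bar; the dashed line is the 30th percentile of all probes, 7.82. Thy1 lies above 14 on all 4 colony arrays and below 10 on both sorted arrays, while Epcam, Cdh1, Kit and Alpl are highest on the sorted arrays.

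Promoter windows of 5 members were held in the RefSeq sequence table (GRCm38.p6), which reaches from 250 bases before to 50 bases after a gene's start. They are shown because 3 of these genes were lower and 2 were higher in both kinds of colony. The windows are Epcam on the + strand at chr17:87635729-87636028, Alpl on the - strand at chr4:137796335-137796634, Kit on the + strand at chr5:75574737-75575036, Itgb1 on the + strand at chr8:128685404-128685703 and Cd9 on the - strand at chr6:125494711-125495010. Alpl and Kit have 2 listed starts each, of which the first in the table is shown. Capitals mark matches, on either strand, to the GC box GGGCGG, the E2 box CACCTG bound by zinc finger repressors of epithelial genes, and the hypoxia response core ACGTG. A search for the TATA box TATAAA and the CCAAT box found no match in these 5 windows.
Epcam: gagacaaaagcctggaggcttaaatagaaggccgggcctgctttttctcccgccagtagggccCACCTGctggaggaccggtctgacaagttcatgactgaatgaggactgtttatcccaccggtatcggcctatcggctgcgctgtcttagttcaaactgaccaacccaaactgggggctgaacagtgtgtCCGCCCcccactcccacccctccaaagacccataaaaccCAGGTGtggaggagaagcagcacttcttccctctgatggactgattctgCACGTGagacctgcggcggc
Alpl: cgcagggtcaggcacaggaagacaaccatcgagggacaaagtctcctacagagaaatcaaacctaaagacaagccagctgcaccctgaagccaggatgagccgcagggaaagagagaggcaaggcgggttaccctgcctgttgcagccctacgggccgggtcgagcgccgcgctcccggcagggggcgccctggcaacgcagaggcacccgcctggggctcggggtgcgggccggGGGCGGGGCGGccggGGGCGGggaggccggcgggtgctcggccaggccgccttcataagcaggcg
Kit: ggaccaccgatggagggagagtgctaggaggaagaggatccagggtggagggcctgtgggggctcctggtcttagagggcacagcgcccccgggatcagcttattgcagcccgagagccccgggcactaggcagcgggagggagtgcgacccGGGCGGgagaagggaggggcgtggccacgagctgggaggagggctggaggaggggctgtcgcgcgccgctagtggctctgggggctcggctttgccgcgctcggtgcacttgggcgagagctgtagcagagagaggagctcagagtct
Itgb1: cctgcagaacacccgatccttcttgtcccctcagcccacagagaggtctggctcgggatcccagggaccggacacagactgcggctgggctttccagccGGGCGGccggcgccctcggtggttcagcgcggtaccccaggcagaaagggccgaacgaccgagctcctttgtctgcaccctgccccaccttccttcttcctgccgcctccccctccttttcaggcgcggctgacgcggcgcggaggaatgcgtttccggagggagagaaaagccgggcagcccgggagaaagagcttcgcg
Cd9: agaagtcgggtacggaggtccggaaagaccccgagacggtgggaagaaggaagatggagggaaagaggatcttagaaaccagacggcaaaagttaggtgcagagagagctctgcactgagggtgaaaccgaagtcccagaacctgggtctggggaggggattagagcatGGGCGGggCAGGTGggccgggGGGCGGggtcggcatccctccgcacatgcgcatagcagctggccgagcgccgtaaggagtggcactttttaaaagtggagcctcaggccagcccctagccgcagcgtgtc

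The GC box was present in all 5 of these windows, and in 35.7% of 32851 promoter windows of the same length. Epcam carried 2 E2 boxes and Cd9 carried 1, while 20.2% of all windows held at least 1. The ACGTG core appeared in the Epcam window alone among these 5, where its 2 matches are the overlapping strands of CACGTG, and 19.6% of all windows held it. The other listed Alpl start held 1 match each to the TATA and E2 boxes and none to the GC box, and the other Kit start held 1 GC box. The percentages of all windows count every listed start. A match describes these letters and not a bound site.

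Itga6 (probe mMR028040), the alpha 6 integrin subunit, gave 11.86 and 11.76 in GSC colonies, 12.26 and 12.10 in sorted cells, and 12.34 and 12.44 in PGC colonies. The groups did not overlap, with PGC colonies highest and GSC colonies lowest. The difference of PGC colonies from sorted cells was 0.21 ± 0.12 (SE; limma adjusted p = 0.20), and its 95% confidence interval ran from -0.07 to 0.49. It was 0.73 and passed (adjusted p = 0.0019) without normalization between arrays. GSC colonies lay 1.29-fold below sorted cells, a difference of -0.37 (95% interval -0.65 to -0.08; adjusted p = 0.042). That difference was 0.20 (adjusted p = 0.16) without normalization between arrays and -0.22 (adjusted p = 0.19) with arrays centred on their medians. It also lost its call without either GSC colony array or either sorted array, at -0.45 to -0.29 over all arrays left out in turn. PGC colonies were 1.49-fold above GSC colonies (95% interval 0.29 to 0.86 in log2; adjusted p = 0.023), a call lost without either GSC colony array or without PGC colony replicate 2 (differences 0.62, 0.52 and 0.53). The mRNA of the sort marker was thus not measured higher in the sorted cells than in PGC colonies, which grew from unsorted cells.

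Itgb1 (probe PH_mM_0013685), the beta subunit that partners alpha 6 on stem cells, gave 14.75 and 14.86 in GSC colonies, 13.69 and 13.58 in sorted cells, and 14.78 and 14.76 in PGC colonies. Both kinds of colony lay above sorted cells, and the colony groups overlapped each other. The rise was 2.24-fold in GSC colonies (adjusted p = 2.6e-04; 1.87 in log2 without normalization between arrays) and 2.19-fold in PGC colonies (adjusted p = 3.1e-04). The colonies differed by -0.03 (95% interval -0.30 to 0.23). The other Itgb1 probe (PH_mM_0001346) was dim, at 8.81 to 8.96 on the 6 arrays, and differed by 0.14 and 0.06 in the same contrasts, neither of which passed. With the mean of both probes the differences were 0.65 and 0.60. The change in the log2 ratio of Itgb1 to Itga6 within an array, relative to the mean of the sorted arrays, was 1.43 and 1.64 in GSC colonies and 0.98 and 0.86 in PGC colonies. These ratios compare changes and not levels, and from the deposited values they were 1.58, 1.76, 0.99 and 0.88, close to the normalized ones. They rest on the brighter probe: on the dim probe the ratios changed by 0.46 and 0.56 in GSC colonies and by -0.05 and -0.26 in PGC colonies.

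Cd9 (probe mMC006189), a tetraspanin that associates with integrins in the membrane, was graded over the 3 groups. Its values were 12.00 and 11.73 in sorted cells, 13.02 and 13.00 in GSC colonies, and 13.98 and 14.06 in PGC colonies. No groups overlapped, and each step in this order passed the test: 1.14 ± 0.13 from sorted cells to GSC colonies (adjusted p = 5.6e-04) and 1.01 ± 0.13 from GSC to PGC colonies (adjusted p = 0.0038). PGC colonies were 4.44-fold above sorted cells. The step from sorted cells to GSC colonies was 1.72 without normalization between arrays. Relative to Itga6 within an array, Cd9 changed by 1.47 and 1.55 in GSC colonies and by 1.95 and 1.93 in PGC colonies.

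Thy1 (probe mMC006582), a glycosylphosphatidylinositol-anchored protein of the immunoglobulin family, had the largest difference among the members in both comparisons with sorted cells. Its deposited intensities were 43762 and 43270 in GSC colonies, 21190 and 25748 in PGC colonies, and 485 and 532 in sorted cells. On the normalized scale PGC colonies were 30.5-fold above sorted cells (4.93 ± 0.12; adjusted p = 3.9e-06), and GSC colonies 50.3-fold (adjusted p = 2.2e-06). GSC colonies exceeded PGC colonies 1.65-fold (95% interval -1.02 to -0.43 for PGC minus GSC; adjusted p = 0.012). The summed normalized intensity of the fibroblast and mesenchyme markers moved with Thy1: it was 486346 to 500920 in GSC colonies, 240192 to 255640 in PGC colonies and 23087 to 25734 in sorted cells. Dcn, which encodes the matrix proteoglycan decorin, made up 49.1% to 69.6% of these sums. Of the 12 markers of that list 10 were tested, of which 10 rose in GSC colonies and 9 in PGC colonies, and Col1a1 and Fbln1 lay under the 30th percentile on both arrays of every group. Between the colonies 2 of the 10 were higher and 7 were lower in PGC colonies, and 0 and 7 without normalization between arrays. The part of these cells in the Thy1 difference was not tested.

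Cd24a (probe PH_mM_0001610), a small, heavily glycosylated and lipid-anchored adhesion protein, gave 11.62 and 11.64 in GSC colonies, 12.28 and 12.37 in sorted cells, and 12.81 and 12.80 in PGC colonies. Replicates lay within 0.1 of each other and no groups overlapped. GSC colonies were 1.62-fold below sorted cells (-0.70 ± 0.10; adjusted p = 0.0019), which did not pass when arrays were left unnormalized (-0.13; adjusted p = 0.36). PGC colonies were 1.40-fold above sorted cells (adjusted p = 0.0094), a call lost without sorted replicate 1 (0.43; adjusted p = 0.077), while the difference was 1.00 without normalization between arrays. PGC colonies exceeded GSC colonies 2.26-fold (1.18 ± 0.10; adjusted p = 9.1e-04), and this was 1.13 without normalization between arrays.

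Epcam, the epithelial cell adhesion molecule, was measured by 2 probes that agreed in direction against sorted cells. The probe used for the gene (PH_mM_0009383) gave 8.54 and 8.64 in GSC colonies, 10.38 and 10.54 in sorted cells, and 8.43 and 8.41 in PGC colonies, so both sorted arrays stood above all colony arrays. It was 3.66-fold lower in GSC colonies (adjusted p = 3.8e-05) and 4.11-fold lower in PGC colonies (adjusted p = 3.2e-05). The other probe (PH_mM_0014145) gave 11.79 and 11.69 in sorted cells. In PGC colonies it lay under the 30th percentile on both arrays, so sorted cells were at least 15.2-fold higher, against the array's 30th percentile. In GSC colonies it was 14.2-fold lower, with 1 of its 2 arrays under that percentile. Between the colonies the first probe differed by -0.17 (95% interval -0.44 to 0.10) and did not pass. PGC colonies were lower on the other probe (adjusted p = 0.019 over all probes), by at least 1.07-fold. The size of the Epcam differences thus depends on the probe, and the means of the 2 probes over the 6 arrays lay close, at 9.16 and 8.96. Without PGC colony replicate 1 the other probe had the higher mean and stood for the gene, and the differences became -3.83, -4.43 and, between the colonies, -0.61 (adjusted p = 0.068).

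Cdh1 (probe PH_mM_0009432), which encodes the calcium-dependent adhesion protein E-cadherin, was also highest in sorted cells. It gave 9.19 and 9.23 in sorted cells, 7.81 and 8.00 in GSC colonies, and 8.17 and 8.14 in PGC colonies. The colony values sat close to the 30th percentile, 7.82, and GSC colony replicate 1 lay under it. Cdh1 was 2.47-fold lower in GSC colonies (adjusted p = 1.9e-04) and 2.08-fold lower in PGC colonies (adjusted p = 5.0e-04), the latter a difference of -0.64 without normalization between arrays. The colonies differed by 0.25 (95% interval -0.03 to 0.53; adjusted p = 0.21). The summed level of 8 epithelial markers was also highest in sorted cells, at 14374 to 14975 in sorted cells, 7420 to 7687 in GSC colonies and 4234 to 4653 in PGC colonies, but the keratin gene Krt8 made up 58.8% to 59.0% of the sum in sorted cells. In GSC colonies 2 of the 8 rose, Msln (3.34 ± 0.11) and Upk3b (0.87 ± 0.13), both genes of mesothelium, and 4 fell, while in PGC colonies none rose and 7 fell. These counts were 2 and 3, and 1 and 4, without normalization between arrays. The sums of 9 Sertoli cell markers were 693112 to 758937 in sorted cells, 275152 to 281104 in GSC colonies and 214503 to 234555 in PGC colonies. Clu made up 78.2% to 81.1% of the colony sums, but 36.8% to 40.3% of the sums in sorted cells. Of the 9 markers 8 fell in GSC colonies and 9 in PGC colonies, with median differences of -2.56 and -3.05. Without normalization between arrays 1 rose and 8 fell in GSC colonies, and 0 rose and 8 fell in PGC colonies. Of the Sertoli list Amh lay under the 30th percentile on both GSC colony arrays, and of the epithelial list Esrp1 did so in both kinds of colony and Msln in PGC colonies. The part of these cells in the Epcam and Cdh1 differences was not tested.

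Kit (probe mMC001584), the receptor of stem cell factor, gave 10.09 and 10.08 in sorted cells, 9.16 and 8.74 in GSC colonies, and 9.05 and 9.22 in PGC colonies. Sorted cells were highest, and the colony groups overlapped. The fall was 2.20-fold in GSC colonies (adjusted p = 0.0016) and 1.93-fold in PGC colonies (-0.95 ± 0.16; adjusted p = 0.0037), while the colonies differed by 0.19 (95% interval -0.20 to 0.58). The falls were -0.69 and -0.51 and still passed when arrays were left unnormalized. The summed level of 5 Leydig cell markers was 77602 to 81031 in sorted cells beside 23701 to 24504 in GSC and 21619 to 21743 in PGC colonies, and none lay under the 30th percentile on both arrays of a group. The sum did not hold for each marker: Cyp17a1, Hsd3b1 and Nr5a1 fell in both kinds of colony, Cyp11a1 passed in neither, and Star rose in GSC colonies (0.35 ± 0.11; adjusted p = 0.041). The part of these cells in the Kit difference was not tested.

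Alpl (probe PH_mM_0001591), whose enzyme gives alkaline phosphatase staining, had the largest fall of the members on the probes used. Deposited intensities were 3283 and 4199 in sorted cells, 963 and 885 in GSC colonies, and 647 and 792 in PGC colonies. On the normalized scale these were 12.12 and 12.39, 9.78 and 9.69, and 9.25 and 9.63, so colonies of both kinds lay below sorted cells without overlap. Sorted cells exceeded GSC colonies 5.74-fold (adjusted p = 5.9e-05) and PGC colonies 7.03-fold (adjusted p = 4.1e-05). The colonies differed by -0.29 (95% interval -0.70 to 0.11; adjusted p = 0.30), and by -0.48 to -0.10 with arrays left out in turn. In GSC colonies the lower Alpl signal was thus seen in colonies that the protocol calls alkaline phosphatase positive. The arrays do not measure that activity.

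**Figure D2:**
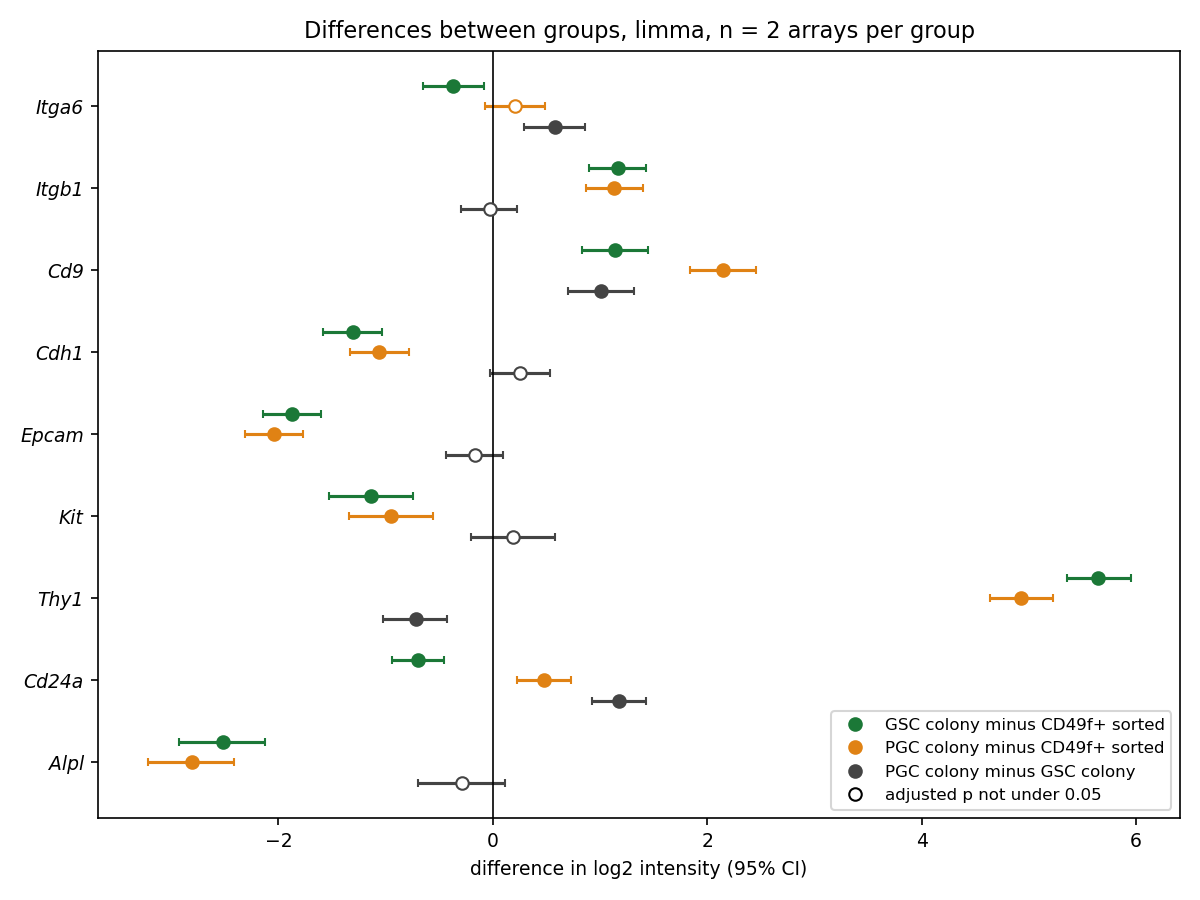
Difference in log2 intensity (horizontal axis) of each marker in the 3 comparisons, as points with 95% confidence intervals from limma (n = 2 arrays per group); open points did not pass an adjusted p under 0.05. Thy1 stands apart at 5.65 and 4.93, Alpl lies at -2.52 and -2.81, and the intervals of PGC minus GSC colonies include 0 for Itgb1, Cdh1, Epcam, Kit and Alpl.

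Cell type markers set these values in context. Of 18 germ cell markers, 5, 6 and 6 lay under the 30th percentile on both arrays in GSC colonies, sorted cells and PGC colonies, among them Dppa3, Sall4 and Sycp3 in every group. Their summed level was 36814 to 37996 in GSC colonies, 39456 to 46447 in sorted cells and 25862 to 33987 in PGC colonies. In GSC colonies against sorted cells 7 of 13 tested rose and 3 fell, and without normalization between arrays 10 rose and 2 fell. The rises were led by the stem cell transcription factor gene Zbtb16, which was at least 6.17-fold higher. Uchl1, Id4 and Dnd1, the last named after its values were seen, went the other way. Uchl1 measured 12.01 and 11.92 in GSC colonies against 14.08 and 13.90 in sorted cells. Id4 measured 8.02 and 8.20 against 9.53 and 9.53, and Dnd1 10.43 and 10.11 against 11.12 and 11.27. In PGC colonies 2 rose and 4 fell against sorted cells, and 1 was higher and 7 were lower than in GSC colonies. The sum did not follow these counts: Piwil2, a piRNA pathway gene that passed in no comparison, made up 36.9% to 58.0% of it. Dazl, a germ cell RNA-binding protein gene, lay under the 30th percentile on both PGC colony arrays. Macrophage and leukocyte markers summed to 143817 to 146089 in sorted cells, 6743 to 7119 in GSC colonies and 12821 to 14770 in PGC colonies. Adgre1, C1qb, Pf4 and Tyrobp lay under the 30th percentile in GSC colonies, as did Pf4 in PGC colonies. Endothelial markers summed to 49088 to 51659 in sorted cells, beside 21046 to 21867 in GSC and 9731 to 10067 in PGC colonies. Of 8 tested, 1 rose and 6 fell in GSC colonies, and 8 fell in PGC colonies. Without normalization between arrays these counts were 2 and 6, and 0 and 7. Emcn rose in GSC colonies, at 13.61 and 13.59 against 12.30 and 12.38 in sorted cells. It made up 57.1% to 58.4% of the GSC colony sum, which thus did not fall evenly over the list. The macrophage, endothelial and Sertoli sums were thus higher in sorted cells than in either kind of colony.

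**Figure D3:**
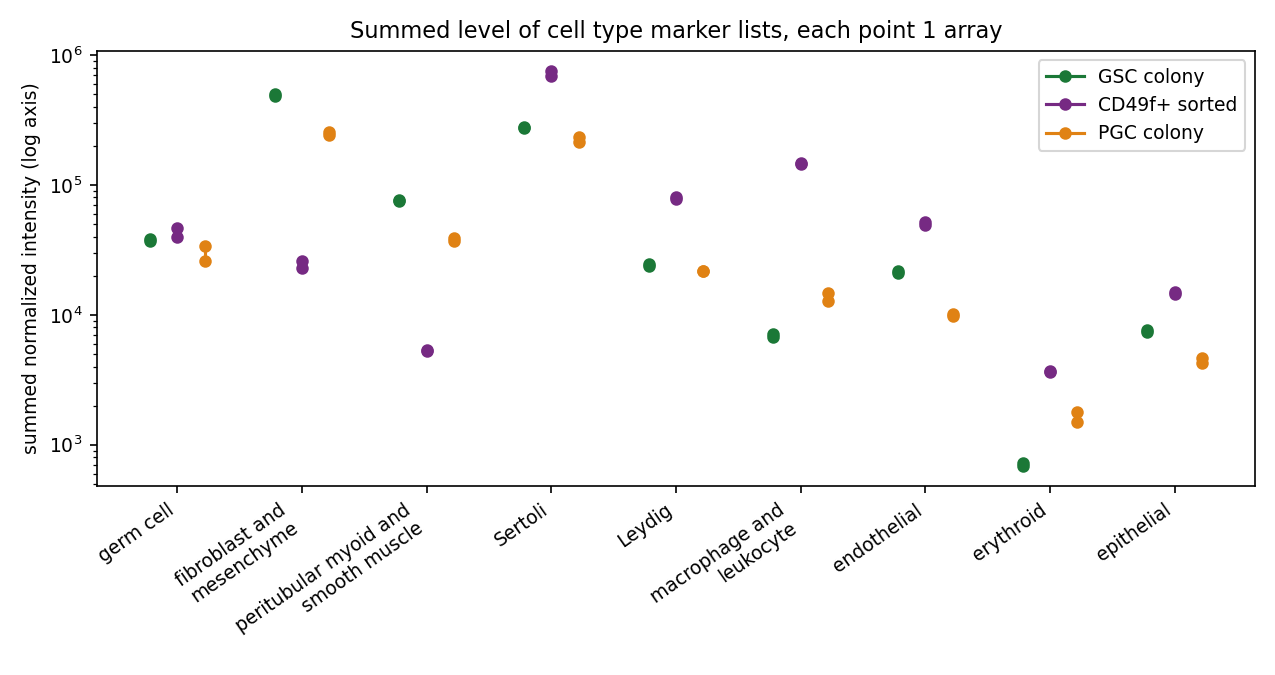
Summed normalized intensity (vertical log axis) of 9 cell type marker lists, 1 point per array, coloured by group. Fibroblast and smooth muscle lists are highest in colonies, Sertoli, Leydig, leukocyte, endothelial, erythroid and epithelial lists are highest in sorted cells, and germ cell sums range from 25862 to 46447.

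Other surface proteins used on spermatogonial stem and primordial germ cells were mostly lower in colonies. Of 15 such genes 13 were tested, and 2 rose and 7 fell in each kind of colony against sorted cells, with a median difference of -0.46 in GSC and -0.50 in PGC colonies beside -0.01 and -0.02 over all genes. Without normalization between arrays the counts were 5 and 5 in both, as the median of all genes then shifted by 0.47 and 0.42. Podxl, a sialomucin of primordial germ cells and podocytes, fell, with differences of -3.45 ± 0.13 in GSC and -2.42 ± 0.13 in PGC colonies. Epha2, an ephrin receptor, fell too (-2.37 ± 0.11 and -2.23 ± 0.11). Tspan8, a tetraspanin, was 9.75 ± 0.07 (SD, n = 2) in sorted cells and lay at least 3.81-fold lower in PGC colonies. The neural cell adhesion gene Ncam1 rose by 2.50 ± 0.14 and 3.09 ± 0.14, and Icam1 rose by 1.93 ± 0.16 and 0.78 ± 0.16. Gfra1, a co-receptor for GDNF, is named here after its values were seen and passed in no comparison. It measured 9.75 ± 1.00, 9.84 ± 0.77 and 11.07 ± 0.29 (SD, n = 2) in GSC colonies, sorted cells and PGC colonies. Among surface genes that are low on germline stem cells, 4 of 7 were on the array, of which 3 rose and 1 fell in GSC colonies and 2 rose and 1 fell in PGC colonies (3 and 1, and 3 and 0, without normalization between arrays). Pdgfra, a mesenchymal growth factor receptor, rose by 4.78 ± 0.11 in GSC and 3.73 ± 0.11 in PGC colonies, and B2m, the light chain of MHC class I, by 1.37 ± 0.14 and 1.23 ± 0.14. Ptprc, which encodes CD45, fell (-0.80 ± 0.12 and -0.63 ± 0.12), the latter a call lost without normalization between arrays.

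The genes around the CD49f integrin rose more often than they fell. Of 19 tested integrin, laminin and adaptor genes, 13 rose and 3 fell in GSC colonies (median 0.87) and 10 rose and 3 fell in PGC colonies (median 0.51). Without normalization between arrays these counts were 14 and 1, and 11 and 0. The normalized shares over all genes tested were 22.5% higher and 24.5% lower in GSC colonies, and 22.8% and 23.2% in PGC colonies. The laminin chain gene Lama2 rose by 4.24 ± 0.17 in GSC and 3.35 ± 0.17 in PGC colonies, and Lama4 rose by 1.94 ± 0.10 and 1.33 ± 0.10. Itgb4, the other beta partner of alpha 6, fell in PGC colonies (-0.60 ± 0.16). Itga3, a laminin-binding alpha subunit, fell there too (-0.96 ± 0.21). Both were also called lower in GSC colonies, while Itgb1 rose in both kinds of colony on its brighter probe. Without normalization between arrays the calls of Itgb4 and Itga3 were lost in both kinds of colony. With arrays centred on their medians they were lost in GSC colonies. Between the colonies 1 gene of this list was higher and 6 were lower in PGC colonies, with the laminin gene Lama5 at -1.27 ± 0.14 and the integrin subunit Itga9 at 0.56 ± 0.13.

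Tetraspanins, the family of Cd9, were divided. Of 15 genes of tetraspanins and CD9 partners 4 rose and 6 fell in GSC colonies, and 6 rose and 2 fell in PGC colonies, against 8 and 3 and 10 and 2 without normalization between arrays. In the normalized fit 22.5% of all genes tested rose and 24.5% fell in GSC colonies, and 22.8% and 23.2% in PGC colonies. Cd82 rose by 1.37 ± 0.17 and 1.11 ± 0.17, and the lysosomal and exosomal Cd63 by 1.35 ± 0.17 and 1.09 ± 0.17. Cd53, a tetraspanin of leukocytes, fell (-2.49 ± 0.16 and -1.33 ± 0.16), beside the fall of the leukocyte list above, whose part was not tested. Its other probe was under the 30th percentile throughout. Tspan12 was higher in PGC than in GSC colonies by 1.37 ± 0.17, and the CD9 partner gene Ptgfrn was lower (-0.57 ± 0.13).

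The list of epithelial adhesion genes also held mesenchymal genes and was divided, and its balance depended on the scaling. Of 23 tested cadherin, catenin, junction and epithelial transition genes, 4 rose and 10 fell in GSC colonies (median -0.23) and 5 rose and 10 fell in PGC colonies (median -0.27). Without normalization between arrays the counts were 8 and 7, and 9 and 7. Of all genes tested in the normalized fit, 22.5% rose and 24.5% fell in GSC colonies, and 22.8% and 23.2% in PGC colonies. The keratin gene Krt8 measured 13.08 ± 0.05 in sorted cells, 8.90 ± 1.16 in GSC colonies and 9.73 ± 0.15 in PGC colonies (SD, n = 2), and its differences of -4.17 ± 0.48 and -3.35 ± 0.48 passed. Ocln, a tight junction protein gene, fell in GSC colonies (-2.22 ± 0.13) and, under the 30th percentile in PGC colonies, was lower there by at least 5.37-fold. The placental cadherin gene Cdh3 was lower in PGC than in GSC colonies (-0.47 ± 0.11) on the probe used, beside -0.22 and -0.02 on its other probes, while the endothelial cadherin gene Cdh5 fell in PGC colonies against sorted cells (-3.35 ± 0.10). Some mesenchymal genes of this list rose. Twist1, a transcription factor of mesenchyme, rose by 4.19 ± 0.13 and 4.80 ± 0.13, and the mesenchymal cadherin gene Cdh11 by 2.62 ± 0.11 and 3.43 ± 0.11. Snai2 and Zeb1, named after their values were seen, were also higher in both kinds of colony. Snai2 measured 13.34 to 13.71 on the colony arrays against 10.86 and 10.88 in sorted cells. Zeb1 measured 14.26 to 14.61 against 13.01 and 13.11. Others did not pass in either kind of colony: the differences were -0.23 and -0.10 for Snai1, 0.12 and -0.05 for Zeb2, and 0.27 and 0.35 for the neural cadherin gene Cdh2, all 3 named after their values were seen.

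Among 9 tested genes of KIT signalling, 4 rose and 2 fell in each kind of colony (5 and 1 without normalization between arrays). Over all genes tested 22.5% rose and 24.5% fell in GSC colonies, and 22.8% and 23.2% in PGC colonies. Pik3ca, named after its values were seen, went up on the probe used (0.39 and 0.41) and down on its other probe (-0.80 and -1.11). Kitl, which encodes the KIT ligand and is named after its values were seen, lay under the 30th percentile in sorted cells and was at least 2.23-fold higher in GSC and at least 2.05-fold higher in PGC colonies, opposite to its receptor. The transcription factor gene Mitf rose by 2.97 ± 0.11 in GSC and 1.46 ± 0.11 in PGC colonies, the phosphoinositide 3-kinase regulatory subunit Pik3r1 rose by 1.54 ± 0.11 and 1.39 ± 0.11, and the phosphatase gene Ptpn6 fell in both (-1.10 ± 0.15 in GSC colonies; adjusted p = 0.0012 and 0.0019). Of 8 tested genes of alkaline phosphatases and of phosphate and mineral handling, 2 rose and 2 fell in each kind of colony (5 and 1, and 5 and 0, without normalization between arrays). The counts of 2 and 2 lie near the shares over all genes, so they say little about this list. Ank, a pyrophosphate exporter gene, rose by 1.60 ± 0.19 and 2.59 ± 0.19, and the phosphate transporter gene Slc20a1 fell (-1.60 ± 0.15 and -0.74 ± 0.15), the latter a call that was lost when arrays were left unnormalized. Alppl2, another alkaline phosphatase gene, fell (-0.58 ± 0.12 and -0.65 ± 0.12), and these calls were lost without normalization between arrays.

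**Figure D4:**
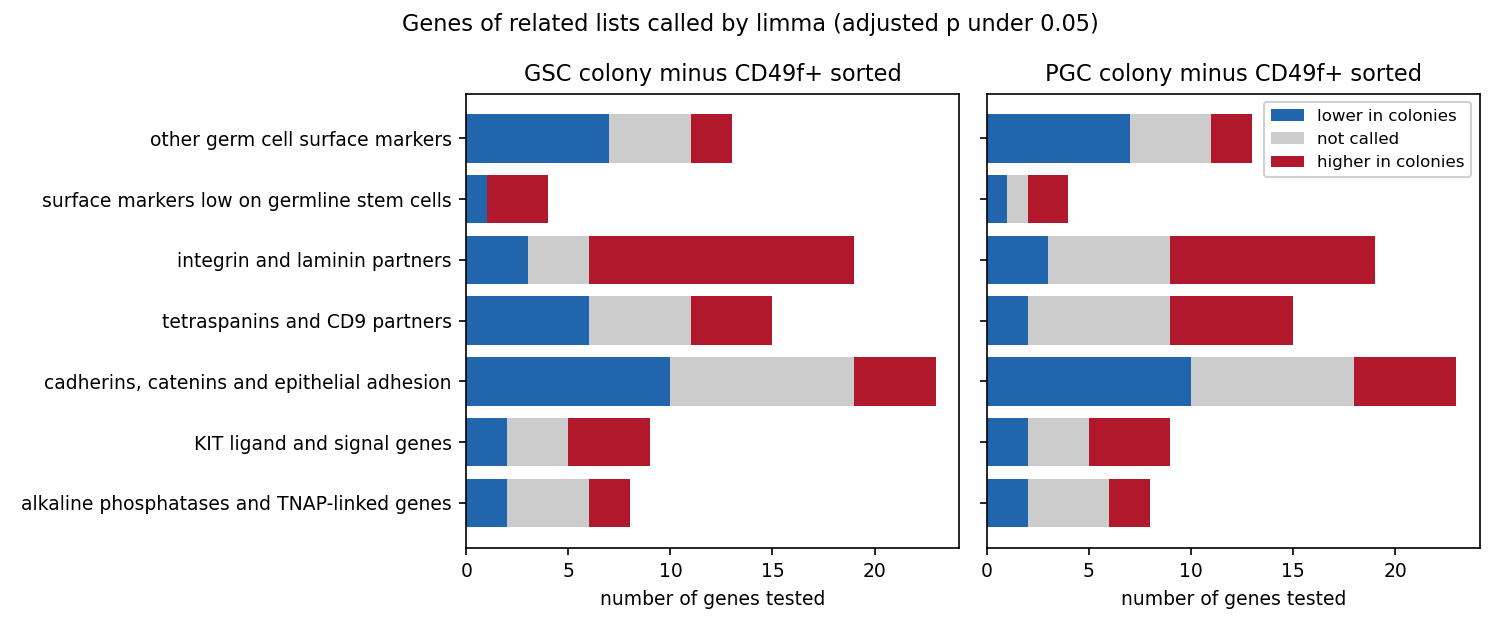
Number of tested genes (horizontal axis) of 7 lists related to the surface markers that were lower, not called or higher in colonies than in sorted cells at a limma adjusted p under 0.05. In GSC colonies 13 of 19 integrin and laminin genes were higher, and 10 of 23 adhesion genes were lower.

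The genes most like each marker were taken as those with the smallest root mean square difference of mean-centred log2 values over the 6 arrays, 3 for each, which describes likeness in these arrays alone. For Itga6 these were Phlpp1 (0.03), Prpf38b (0.04) and Anks3 (0.05). Itgb1 lay nearest the tetraspanin gene Tspan9 (0.03), which rose by 1.14 ± 0.11 and 1.16 ± 0.11 in the 2 kinds of colony. Epcam lay nearest Brpf3 and Ap1m2 (0.04 each), Cd24a nearest the surface protein gene Emb (0.02), Cd9 nearest Rab38 (0.08), Cdh1 nearest Pmf1 (0.06), Kit nearest Slc12a7 (0.07) and Alpl nearest Sox17 (0.09). Thy1 had no gene nearer than Dkk3, at 0.17.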

How the data were processed

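Total RNA of 6 samples was hybridised to single-colour arrays. The deposited table gives probe intensity on a linear scale, and 4 arrays hold values below 0, as after background subtraction. The scanner, its software and the background and scaling steps are not given in the sources used. Median deposited intensity was 393 to 606 per array. Probes were named through the platform's probe table: 21876 had 1 symbol, 0 several and 4547 none. After normexp correction (offset 50), log2 values were quantile normalized between arrays. Of several probes, the one with the highest mean over the arrays fitted stood for a gene. A gene was tested where 2 or more of the 6 arrays reached the 30th percentile, 7.82, which stands in for detection calls; at-least folds set the brighter mean against it. limma 3.58.1 in R 4.3.3 fitted the 3 group means over all arrays, without a block, which left 3 degrees of freedom. The fit was checked on simulated data with 200 genes changed, far fewer than were called in these arrays. There it recovered 7.46% to 14.9% of 1.5-fold changes, so a small difference that did not pass may have been missed. The number of arrays limits the precision.

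The members and the 16 gene lists (184 genes, 167 on the array) were chosen with earlier results of these data known. All members were named. From each list up to 2 genes with the largest rise and 2 with the largest fall past the threshold could be named per comparison, and exceptions are marked as named after their values were seen, which also holds for Hsd3b1, Cyp11a1 and the genes that lead a sum (Dcn, Piwil2, Clu). Summed levels are sums of normalized linear intensities over a list. Alternatives changed the block, scaling, offset, background, filter, probe rule, groups fitted, prior and arrays.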

Additional observations from a re-analysis of the deposited data

Results flagged for a closer look

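Itga6 and Cd24a lay on opposite sides of sorted cells in the 2 kinds of colony, and the difference between the colonies passed limma's test for each. For Itga6 the difference of PGC from GSC colonies was 0.58 ± 0.12 (SE; adjusted p = 0.023), with PGC colonies 0.21 above and GSC colonies below sorted cells (-0.37). The difference of 0.21 did not pass (limma adjusted p = 0.20), and the call between the colonies was lost with the replicate number as a block. Without normalization between arrays both kinds of colony lay above sorted cells, at 0.73 (adjusted p = 0.0019) and 0.20 (adjusted p = 0.16), and the difference between them was 0.53. For Cd24a the difference between colonies was 1.18 ± 0.10 (adjusted p = 9.1e-04), from 0.48 in PGC and -0.70 in GSC colonies. The latter was -0.13 and did not pass without normalization between arrays (limma adjusted p = 0.36). Both contrasts use the same sorted arrays.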

How the results depend on the processing

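The count of members called was 9, 8 and 4 in GSC colonies against sorted cells, PGC colonies against sorted cells and PGC against GSC colonies, and stayed within 7 to 9, 7 to 9 and 3 to 5 over all alternatives, a crossed block added after seeing the data included. Of the 27 member differences, Itga6 in GSC colonies turned to 0.20 without normalization between arrays. Over arrays left out in turn, Itgb1 between the colonies ran from -0.09 to 0.02 and Kit from -0.02 to 0.40, neither past the threshold. Without PGC colony replicate 1 the rule on probes took the other Epcam probe, and Epcam went from -1.87 to -3.83, from -2.04 to -4.43 and from -0.17 to -0.61. A fit of only the groups compared took it too (-3.81 and -4.45 against sorted cells). Epcam between the colonies passed with the mean of its probes (-0.43; adjusted p = 0.045). Replicate numbers are shared by the groups, but the labels do not say that they pair samples; the deviations of same-numbered arrays correlated at -0.342 (GSC colony and sorted), 0.326 (PGC colony and sorted) and -0.179 (the colonies). With the replicate number as a block 8, 8 and 3 members were called, where Itga6 lost its calls (adjusted p = 0.068 and 0.050), and 6804, 6637 and 1707 genes in all. With the numbers of the GSC colony arrays exchanged, 9, 8 and 4 members and 7831, 7672 and 2703 genes were called. Without GSC colony replicate 1, or without PGC colony replicate 2, 1445 or 1527 genes differed between the colonies in place of 2329. Without normalization between arrays 82.5% of calls were higher in GSC colonies than in sorted cells in place of 47.9%, and 80.5% in place of 49.5% for PGC colonies, while 3 members were higher and 4 lower, and 5 higher and 4 lower.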
